A study of Homo sapiens with 6 samples.

Results

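The genes examined here were 10 factors and markers of the epithelial-mesenchymal transition, out of 63677 gene identifiers in the count table. They are a list of known genes, named with earlier results of these data in view, and were matched to the table by Ensembl identifier. The set holds 5 transcription factors (SNAI1, SNAI2, ZEB1, ZEB2 and TWIST1), 2 epithelial markers (CDH1 and EPCAM) and 3 mesenchymal markers (CDH2, VIM and FN1). All 10 had more than 10 counts in total and were tested, as were 21729 genes of the table.

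RNA was profiled by poly(A) RNA-seq in UWB1.289 cells, an established human ovarian cancer line that the study describes as BRCA1-deficient and whose genotype the sample labels give as WT. Dishes were incubated for 24 h with Olaparib, an inhibitor of the repair enzyme PARP1, in DMSO (3 samples), or with DMSO alone (3 samples). The dose is 4 µM in the labels and in the study's methods, and 10 µM in the design text. Both groups are the same unmodified line, so the results describe 1 line at 1 time. The study states that the replicates were independent.

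Libraries held between 35360458 and 39640775 counts, and no library stood apart in depth. Of 8 listed markers of its labelled origin, the line expressed some highly and others at low levels. PAX8, a transcription factor of Mullerian epithelium, had 151 ± 2.95 TPM (transcript abundance per exon length, scaled to the same sum in every sample; SD, n = 3 DMSO samples), and the simple-epithelial keratin gene KRT18 had 4258 ± 44.6 TPM. SOX17, KRT7 and KRT8 had 150, 3621 and 2050 TPM in DMSO samples. MUC16 and FOLR1 were low, at 3.66 ± 0.39 and 4.94 ± 0.24 TPM. WT1, another common marker of serous ovarian carcinoma, had 8 counts over all 6 samples. Most of the fibroblast markers were nearly absent. Of 6 listed, 4 (PDGFRB, DCN, LUM and COL3A1) did not exceed 10 counts in total. COL1A1 was detected in every sample, at 289, 318 and 293 counts in DMSO and 252, 328 and 237 in Olaparib samples. The summed level of the 6 was 2.98 to 3.43 TPM in DMSO and 2.56 to 3.72 TPM in Olaparib samples. Nearly all of it was COL1A1, at 3.22 TPM in DMSO and 2.97 TPM in Olaparib samples. In bulk RNA, a change in the number of cells that express a gene and a change of its RNA per cell cannot be told apart.

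In the epithelial-mesenchymal transition, epithelial cells loosen their junctions and take on a migratory, mesenchymal form. Factors of the SNAI, ZEB and TWIST families drive it, and SNAI and ZEB proteins bind E-box motifs to repress epithelial genes, with CDH1 as the classic target. The miR-200 family of microRNAs opposes it by silencing ZEB1 and ZEB2, whose proteins in turn repress the miR-200 genes. Ovarian carcinoma cells often carry epithelial and mesenchymal markers at the same time.

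The microRNA arm of this circuit is shown first. Its targets ZEB1 and ZEB2 were the least abundant of the 10 genes, but whether these microRNAs affected their levels was not tested. The mature family members (RefSeq, GRCh38.p14) fall into 2 groups that differ at 1 base of the seed, bases 2 to 8, which is in capitals. The first pair below shares one seed and the other three sequences share the other.
hsa-miR-200a-3p, chr1:1167916-1167937, plus strand: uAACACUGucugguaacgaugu
hsa-miR-141-3p, chr12:6964155-6964176, plus strand: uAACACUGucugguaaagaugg
hsa-miR-200b-3p, chr1:1167160-1167181, plus strand: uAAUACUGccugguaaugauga
hsa-miR-200c-3p, chr12:6963742-6963764, plus strand: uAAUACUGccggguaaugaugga
hsa-miR-429, chr1:1169055-1169076, plus strand: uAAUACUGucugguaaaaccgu

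The 3′ untranslated regions of ZEB1 and ZEB2 each held 9 matches to these seeds (CAGTGTT or CAGTATT, sense strand only, MANE Select transcripts of GENCODE release 44). Such a match was present in 28.7% of the 18780 transcripts searched, and 8 transcripts held 9 or more. Their 3′ untranslated regions are long, 2540 bases in ZEB1 and 5370 in ZEB2 against a median of 1088.5. Of the other 8 genes, FN1 held 2 matches, SNAI2 held 1, and CDH1, EPCAM, CDH2, VIM, SNAI1 and TWIST1 held 0. The first match to each seed in ZEB1 and ZEB2 is given with its flanks, the match in capitals (GRCh38).
ZEB1 chr10:31528032-31528053, plus strand, match to the first seed: aaaatcatcagaatCAGTGTTt
ZEB1 chr10:31527619-31527640, plus strand, match to the other seed: ttgttttatcttatCAGTATTa
ZEB2 chr2:144389236-144389257, minus strand, match to the first seed: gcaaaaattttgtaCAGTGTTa
ZEB2 chr2:144389052-144389073, minus strand, match to the other seed: gcactaccatacatCAGTATTt

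These libraries measure poly(A) RNA and not mature microRNAs. The host transcript of miR-200c and miR-141, MIR200CHG (chromosome 12, 6963226 to 6964447), was detected at 22, 29 and 42 counts in DMSO and 33, 25 and 39 in Olaparib samples. The Olaparib samples lay within the DMSO range, and the difference on the log2 scale was 0.091 with a standard error of 0.23 (adjusted p = 0.906 in edgeR's quasi-likelihood test). MIR205HG, host of another microRNA that targets ZEB1 and ZEB2, had at most 7 counts in any sample.

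The baseline state of the line was set by comparing levels per exon length (TPM) in the 3 DMSO samples. Epithelial and mesenchymal markers were both abundant. EPCAM (epithelial cell adhesion molecule, ENSG00000119888, chromosome 2, 47345158 to 47387601) had 1153, 1109 and 1116 TPM and ranked 86 of 20867 genes with a known length. FN1 (fibronectin, an extracellular matrix protein, ENSG00000115414, chromosome 2, 215360440 to 215436073) had 1105, 1124 and 1102 TPM and ranked 89. The ranges of these 2 genes overlapped, so their order was not resolved, and it turned when the longest transcript was used as gene length.

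VIM (vimentin, the intermediate filament protein of mesenchymal cells, ENSG00000026025, chromosome 10, 17228241 to 17237593) followed at 159 ± 6.79 TPM (SD, n = 3), with rank 918. CDH2 (N-cadherin, ENSG00000170558, chromosome 18, 27932879 to 28177946) had 57.1 ± 1.53 TPM. CDH1 (E-cadherin, the adhesion molecule of epithelial junctions, ENSG00000039068, chromosome 16, 68737292 to 68835537) had 20.8 ± 0.34 TPM. N-cadherin transcripts therefore exceeded E-cadherin transcripts in every DMSO sample, by 2.76, 2.75 and 2.70 times. With the longest transcript as length the mean ratio was 4.63, so its size depends on the gene model and its direction does not.

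**Figure D1:**
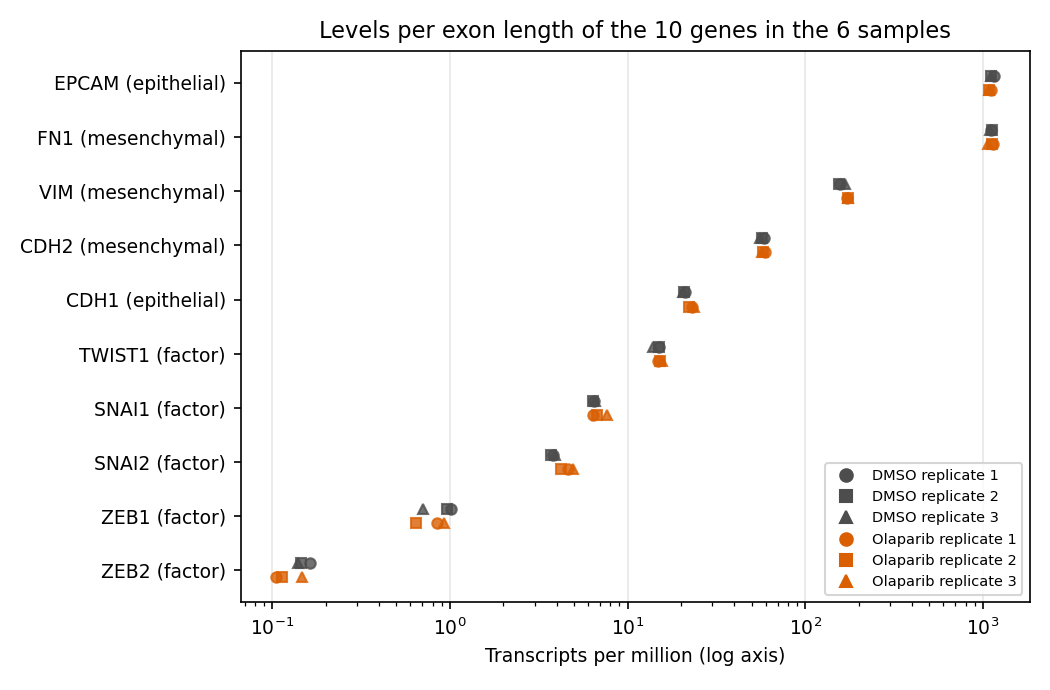
Levels of the 10 genes in TPM (log axis) in the 3 DMSO samples (grey) and the 3 Olaparib samples (orange), ordered by the DMSO mean, with marker shapes for the replicate. EPCAM and FN1 lie together above 1000 TPM, the cadherins between 20 and 60, and the 5 factors below 16, down to ZEB2 under 0.2.

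The transcription factors were all less abundant than the markers, but CDH1, the lowest marker, was only 1.43 times TWIST1, the highest factor. The factors differed among themselves by more than their spread. TWIST1 (ENSG00000122691, chromosome 7, 19020991 to 19117636), a basic helix-loop-helix factor, was highest, at 14.6 ± 0.65 TPM. SNAI1 (Snail, a zinc finger repressor, ENSG00000124216, chromosome 20, 49982980 to 49988886) had 6.43 to 6.58 TPM, and its relative SNAI2 (Slug, ENSG00000019549, chromosome 8, 48917598 to 48921740) had 3.79 ± 0.10 TPM. ZEB1 (ENSG00000148516, chromosome 10, 31318495 to 31529814), a zinc finger and homeodomain repressor, had 0.89 ± 0.17 TPM. ZEB2 (ENSG00000169554, chromosome 2, 144364364 to 144521057), its paralog, had 0.15 ± 0.012 TPM and ranked 19074 of 20867. From FN1 downward, no neighbours in this order had overlapping DMSO ranges, and with the longest transcript as length the order below EPCAM and FN1 was the same. The TWIST1 level was 14.7, 15.6 and 19.6 times that of ZEB1 in the 3 DMSO samples.

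Other epithelial genes ranged from low to high. ESRP1, a splicing regulator of epithelial cells, had 180 ± 0.72 TPM, and the tight junction gene CLDN1 had 1092 ± 13.5 TPM. These were the most abundant epithelial factor and junction gene listed. At the low end, the epithelial factor GRHL3 had 0.75 ± 0.056 TPM and the junction gene OCLN had 3.88 ± 0.20 TPM. Mesenchymal genes were divided as well. NT5E, which encodes the surface enzyme CD73, had 304 ± 3.33 TPM, and AXL and SPARC had 287 ± 5.85 and 214 ± 7.28 TPM. By contrast, PDGFRB, COL3A1, COL5A1, DCN and LUM did not exceed 10 counts in total. The epithelial surface gene CD24 was listed at 0 in all samples. Whether its RNA was absent or was not counted under this identifier was not tested.

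For the comparison of the treated with the DMSO samples, edgeR's quasi-likelihood test was run across all 21729 genes, with Benjamini-Hochberg adjustment. Of the 10 genes, 1 passed an adjusted p of 0.05 (VIM, higher after Olaparib), where 3.36% of all genes passed, 2.15% as higher. When a change of more than 1.2-fold was required as well, 0 of the 10 passed by this test, against 1.21% of all genes. At an unadjusted p under 0.05 there were 3 genes (VIM, CDH1 and SNAI2), against 14.8% of all genes. The groups did not overlap in 4 genes (SNAI2, CDH1, VIM and EPCAM), against 19.3% of all genes. In SNAI2, CDH1 and VIM the treated samples were above, as in 10% of all genes, and in EPCAM they were below, as in 9.29%. The median log2 fold change of the 10 was 0.049, with 7 higher and 3 lower, and that of all genes was -0.0042.

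VIM had 8205, 8202 and 8980 normalized counts in DMSO and 9159, 9357 and 9269 in Olaparib samples. All 3 Olaparib samples were above all 3 DMSO samples, with DMSO replicate 3 the closest to them. The mean rose from 8462 ± 449 to 9261 ± 99.1 (SD, n = 3 each). This was a rise of 9.43%, or 0.13 ± 0.032 on the log2 scale (standard error, 95% interval 0.064 to 0.20), with an adjusted p of 0.0161 in edgeR's quasi-likelihood test. The log2 fold change lay between 0.11 and 0.17 with each sample left out, but the call was lost without DMSO replicate 1, DMSO replicate 2, Olaparib replicate 2 or Olaparib replicate 3 (adjusted p 0.0954, 0.163, 0.0659 and 0.0620 from the same edgeR test). In the annotation, 24.6% of the exonic bases of VIM overlap genes on the opposite strand, VIM-AS1 among them, and the strand setting of the counting is not given in the sources used here. VIM-AS1 itself had 143 ± 6.73 normalized counts in DMSO and 154 ± 20.8 in Olaparib samples (log2 fold change 0.10, adjusted p = 0.736, the same edgeR test), and its part in the result was not tested.

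As VIM was the gene that passed, its promoter is printed (RefSeq, GRCh38.p14, chr10:17227991-17228290, plus strand, 250 bases before to 50 after the transcript start). Capitals mark the GC box GGGCGG, searched on both strands and found 1 time, at 46 bases before the start. This motif was in 44.6% of 27305 promoter windows of the same length.
VIM: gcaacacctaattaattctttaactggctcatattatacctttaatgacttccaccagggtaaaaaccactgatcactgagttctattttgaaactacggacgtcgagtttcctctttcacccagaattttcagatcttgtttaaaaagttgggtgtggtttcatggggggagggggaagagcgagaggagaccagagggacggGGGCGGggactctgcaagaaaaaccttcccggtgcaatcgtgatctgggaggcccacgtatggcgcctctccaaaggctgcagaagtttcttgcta

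The E-box bound by SNAI and ZEB proteins (CACCTG, both strands) and the general E-box (CANNTG, which includes the first) were each found 0 times in this window. They were in 20.6% and 68.9% of the promoter windows. The FN1 window held 0 of either E-box and 6 GC boxes. Other windows searched did hold E-boxes. Of 7 ZEB1 windows, window 1 held 1 CACCTG site and window 3 held 3, and windows 5 and 7 held general E-boxes only. The ZEB2 window and window 2 of 2 for CDH2 each held 1 general E-box and 0 CACCTG sites. No promoter window of CDH1 is reported here.

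CDH1 had 1300, 1302 and 1295 normalized counts in DMSO and 1436, 1382 and 1479 in Olaparib samples. The groups did not overlap, and the DMSO samples lay closer together (0.28% of their mean) than the counting error of such counts (2.76%). The log2 fold change was 0.14 (standard error 0.044, 95% interval 0.052 to 0.23), with an adjusted p of 0.0687 from edgeR's quasi-likelihood test, so CDH1 did not pass. Without Olaparib replicate 2 the adjusted p was 0.0333, and without Olaparib replicate 3 it was 0.360 (the same edgeR test).

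EPCAM had 28293, 27715 and 28174 normalized counts in DMSO and 27600, 27169 and 27163 in Olaparib samples. All 3 Olaparib samples were below the DMSO samples, by a narrow margin. The log2 fold change was -0.039 (95% interval -0.092 to 0.014, adjusted p = 0.528, the same edgeR test).

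For the other mesenchymal markers the intervals were narrow and included 0. CDH2 had 5062, 5066 and 4941 normalized counts in DMSO and 5213, 5111 and 5043 in Olaparib samples, with overlapping groups. Its log2 fold change was 0.028 (95% interval -0.037 to 0.094, adjusted p = 0.759, the same edgeR test). FN1 had 192050, 198950 and 197060 normalized counts in DMSO and 202020, 198890 and 190550 in Olaparib samples, so the treated samples spanned the whole DMSO range. Its log2 fold change was 0.0083 (95% interval -0.047 to 0.064, adjusted p = 0.936, the same edgeR test), and its sign turned with upper-quartile scaling and without DMSO replicate 1 or Olaparib replicate 1. A change of 1.2-fold in either direction lay outside the intervals of EPCAM, CDH2, FN1, VIM and CDH1, and of TWIST1 alone among the factors.

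Read as a ratio within each sample, N-cadherin over E-cadherin was 2.74 ± 0.032 in DMSO and 2.53 ± 0.11 in Olaparib samples (SD, n = 3 each, TPM). The values after Olaparib were 2.57, 2.62 and 2.41, all below the lowest DMSO value of 2.70. VIM over EPCAM was 0.14 ± 0.0071 in DMSO and 0.16 ± 0.0031 in Olaparib samples, without overlap. These ratios combine values described above and were not tested.

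**Figure D2:**
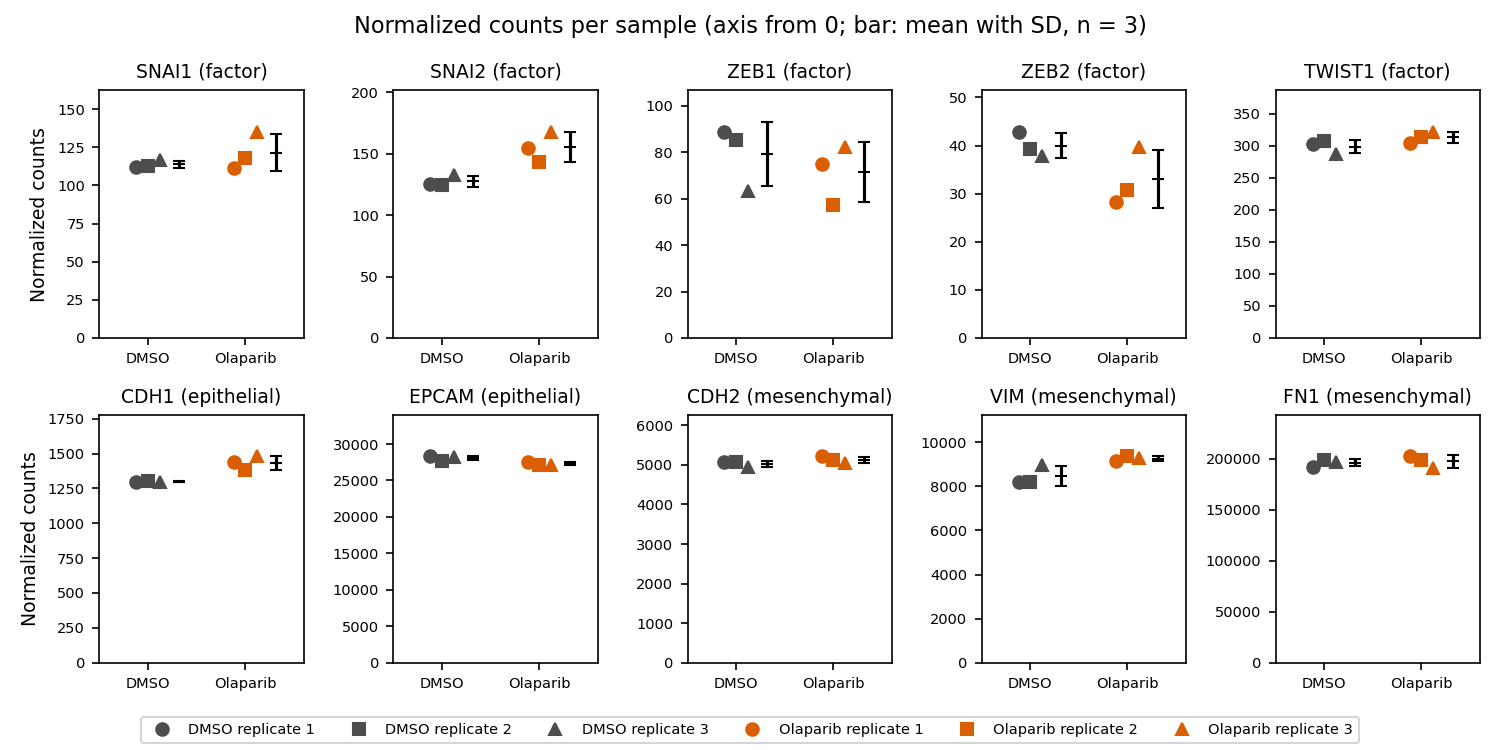
Normalized counts of each gene in the 3 DMSO (grey) and 3 Olaparib samples (orange), with each vertical axis starting at 0 and the mean and SD (n = 3) beside the points. The groups separate in SNAI2, CDH1 and VIM, where Olaparib is higher, and in EPCAM, where it is lower, and they overlap in the other 6 genes.

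None of the 5 transcription factors passed an adjusted p of 0.05 in edgeR's test, in DESeq2's Wald test or with limma voom, and 1 of the 5, SNAI2, had an unadjusted p under 0.05 in edgeR's test. DESeq2 gave no adjusted p for ZEB1 and ZEB2, whose counts were low. SNAI2 had 125, 125 and 133 normalized counts in DMSO and 155, 144 and 168 in Olaparib samples. Its groups did not overlap. Its difference on the log2 scale was 0.29 (standard error 0.11, 95% interval 0.068 to 0.50, unadjusted p = 0.0116, adjusted p = 0.160, edgeR's quasi-likelihood test).

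SNAI1 had 112, 113 and 117 normalized counts in DMSO and 111, 118 and 135 in Olaparib samples. The groups overlapped, and only Olaparib replicate 3 lay well above the rest. The log2 fold change was 0.095 (95% interval -0.14 to 0.33, adjusted p = 0.778), and it was 0.0088 without that replicate (adjusted p = 0.990, the same edgeR test for both). SNAI1P1, a processed copy of SNAI1, was listed at 0 in all samples. TWIST1 had 302, 307 and 287 normalized counts in DMSO and 305, 314 and 322 in Olaparib samples, with overlapping groups and a log2 fold change of 0.070 (95% interval -0.073 to 0.21, adjusted p = 0.717, the same edgeR test).

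ZEB1 had 88.9, 85.3 and 63.5 normalized counts in DMSO and 74.9, 57.4 and 82.5 in Olaparib samples. The lowest DMSO sample lay within the treated range. On the log2 scale the difference was -0.14 (95% interval -0.46 to 0.18, adjusted p = 0.756, the same edgeR test), and with single samples left out it ran from -0.28 without DMSO replicate 3 to -0.0036 without Olaparib replicate 2. ZEB1-AS1, an antisense neighbour that shares 4.58% of the exonic bases of ZEB1, had 244 ± 9.67 normalized counts in DMSO and 218 ± 15.7 in Olaparib samples (log2 fold change -0.16, adjusted p = 0.367, the same edgeR test). ZEB2 had 42.9, 39.2 and 37.9 normalized counts in DMSO and 28.3, 30.8 and 39.8 in Olaparib samples. Olaparib replicates 1 and 2 were below all DMSO samples and replicate 3 was among them. On the log2 scale ZEB2 differed by -0.27 (95% interval -0.68 to 0.13, adjusted p = 0.575, the same edgeR test). ZEB2-AS1 was listed at 0 in all samples. At the depth of the ZEB genes, where counting error alone is 11.2% for ZEB1 and 15.8% for ZEB2, the intervals of both genes include a fall of 1.2-fold as well as no change.

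**Figure D3:**
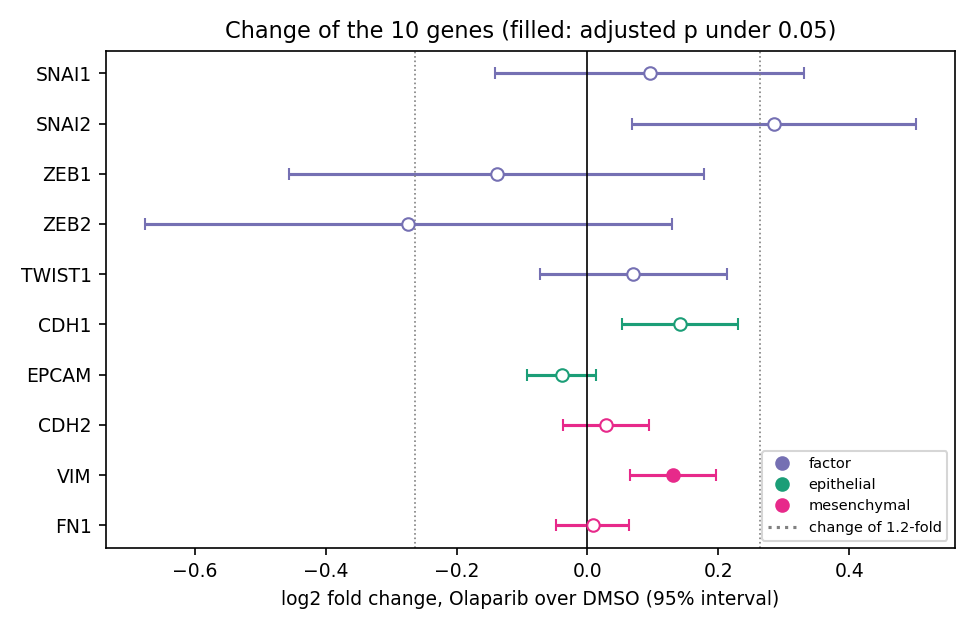
log2 fold change of each gene (Olaparib over DMSO) with its 95% interval from edgeR's quasi-likelihood fit on 3 against 3 samples, colored by role, filled where the adjusted p was under 0.05. VIM alone is filled, and the markers have narrow intervals within the dotted lines of a 1.2-fold change. The factors have wider ones, of which only that of TWIST1 lies within these lines.

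The 10 genes were set beside 92 other genes of the epithelial and mesenchymal programs, in 7 lists, of which 84 had more than 10 counts in total. These lists too were chosen with earlier results of these data known. Their shares are therefore a description and not independent of the values. Of the 84, 10 passed an adjusted p of 0.05, all higher after Olaparib (11.9%, against 3.36% of all genes and 5.88% of the 6787 genes that averaged 1000 counts or more). None passed in the lower direction by edgeR's test, DESeq2 or limma voom, and 2 (FOXQ1 and AXL) had an unadjusted p under 0.05 there. Without Olaparib replicate 1, CLDN1 passed in the lower direction. Without DMSO replicate 2 there were 4 calls among the 84 genes, and without DMSO replicate 3 there were 6. The genes that rose belong to both programs.

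Among 20 tested mesenchymal genes, 4 passed, with a list median of 0.10, and TGFBI, CD44 and LOX are described here. TGFBI, a matrix protein induced by TGF-beta, rose from 4919 ± 205 to 5439 ± 50.03 normalized counts (log2 fold change 0.14, adjusted p = 0.00945, edgeR's quasi-likelihood test). CD44, a hyaluronan receptor, rose by 0.13 on the log2 scale (adjusted p = 0.0201) and LOX, an enzyme that crosslinks collagen, by 0.18 (adjusted p = 0.0482, the same edgeR test for both). The LOX call was lost with 11 of 13 alternative settings. Leaving out DMSO replicate 2 ended the calls of TGFBI (adjusted p = 0.141) and CD44 (0.195), and that of CD44 was also lost without DMSO replicate 3 or Olaparib replicate 1 (the same edgeR test).

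Of 12 epithelial factors, 3 passed, with a list median of 0.068. OVOL1, a zinc finger repressor that favors the epithelial state, had 163, 184 and 182 normalized counts in DMSO and 238, 228 and 224 in Olaparib samples, without overlap. It rose by 0.38 on the log2 scale with a standard error of 0.088 (adjusted p = 0.00895 in edgeR's quasi-likelihood test), and 27.3% of its exonic bases overlap another gene. The epithelial ETS factors ELF3 and EHF rose by 0.30 and 0.24 on the log2 scale (adjusted p = 0.00414 and 0.00307, the same edgeR test). For ELF3, 18.5% of the exonic bases overlap other genes. The EHF call was lost without DMSO replicate 3 (adjusted p = 0.0588) and the ELF3 call without DMSO replicate 2 (adjusted p = 0.0635, the same edgeR test for both).

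Of 18 junction genes, 1 passed, with a list median of -0.00054. It was CLDN4, a tight junction claudin, with 4747 ± 267 normalized counts in DMSO and 5235 ± 200 in Olaparib samples (log2 fold change 0.14, adjusted p = 0.0271, edgeR's quasi-likelihood test). Of 12 other transition factors tested, 1 passed, with a list median of -0.026. It was SOX9, a factor of progenitor cells, which rose by 0.16 on the log2 scale (adjusted p = 0.0201, the same edgeR test). HMGA2, a chromatin factor and the most abundant gene of that list at 92.5 ± 2.57 TPM in DMSO, had a log2 fold change of -0.022 (95% interval -0.083 to 0.039). The CLDN4 call was lost without DMSO replicate 1 or 2 or Olaparib replicate 2 or 3, and that of SOX9 without DMSO replicate 2 or 3 or Olaparib replicate 2 or 3.

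Of 6 genes for receptors of fibronectin, 1 passed, with a list median of 0.066. ITGB3, an integrin beta subunit that binds fibronectin and vitronectin, had 1663, 1587 and 1580 normalized counts in DMSO and 1968, 1954 and 2020 in Olaparib samples. It rose by 0.30 on the log2 scale with a standard error of 0.041 (adjusted p = 1.2e-05 in edgeR's quasi-likelihood test), and 33.2% of its exonic bases overlap a gene on the same strand. ITGA5 and ITGB1, which form the main fibronectin receptor, had log2 fold changes of 0.030 and 0.042 (adjusted p = 0.826 and 0.527, the same edgeR test). None of 5 listed cadherin partners, the catenin genes and VCL (vinculin), passed by edgeR's test, DESeq2 or limma voom, with a median of 0.052. Of them, 2 (CTNNB1 and VCL) had an unadjusted p under 0.05 in edgeR's test. None of 11 tested epithelial surface genes passed by the same tools (1, MUC1, had an unadjusted p under 0.05), with a median of 0.017.

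**Figure D4:**
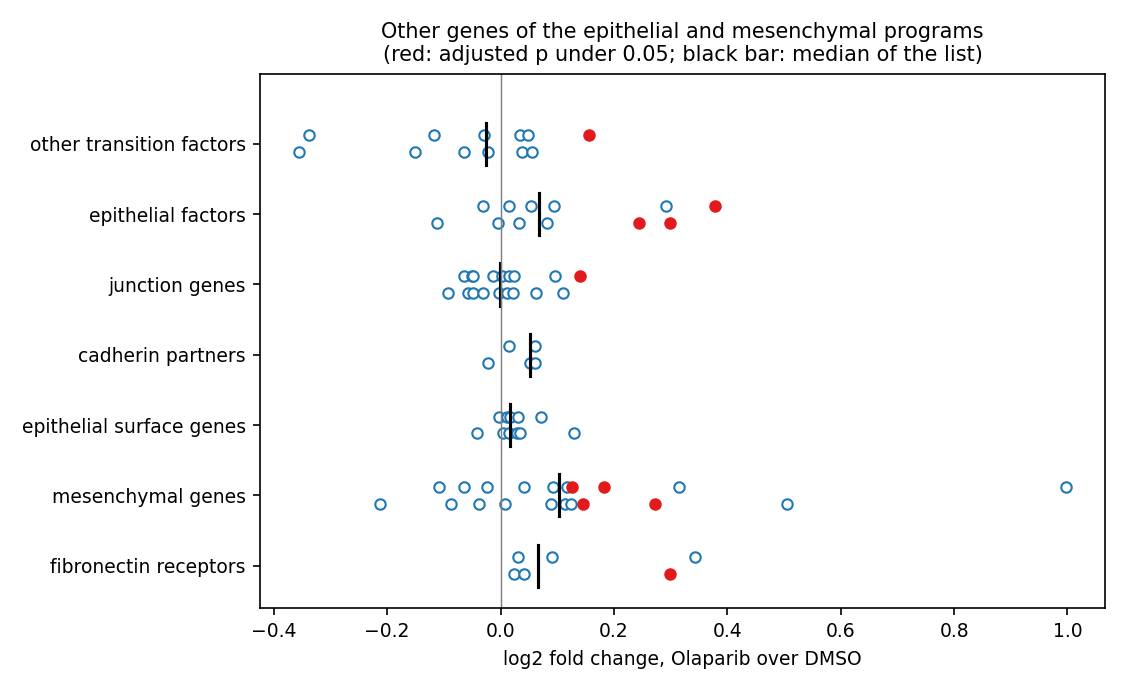
log2 fold change (Olaparib over DMSO) of the other epithelial and mesenchymal genes with more than 10 counts in total, by list, with the list median as a black bar and genes with an adjusted p under 0.05 in red. The 10 red points all lie to the right of 0, 4 of them among the mesenchymal genes and 3 among the epithelial factors, and the points farthest right without a call are genes with few counts, such as FAP.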

How the data were processed

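Per the labels, poly(A) RNA of UWB1.289 cells was made into stranded libraries. Per the study's methods, reads were trimmed with Trimmomatic and aligned to GRCh38 with STAR, duplicates were identified with Picard, and reads per gene were counted with featureCounts. The strand setting, and whether duplicates were removed, are not given in the sources used here. The authors deposited raw counts per gene and sample for 63677 Ensembl identifiers.

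Genes whose counts summed to more than 10 were scaled by TMM and tested with edgeR 4.0.16 in R 4.3.3 (quasi-likelihood test, Olaparib against DMSO, Benjamini-Hochberg adjustment over 21729 genes). Normalized counts are counts divided by the TMM-scaled library size and put on a common scale. "Passed" means an adjusted p under 0.05. Levels in TPM were computed with exon lengths from GENCODE release 44, which held 99.4% of the counts of tested genes. Depth was 35360458 to 39640775 counts per sample, and for each gene the Poisson error of its counts bounds the precision. Alternatives were DESeq2 1.42.0, limma 3.58.1 with voom, other scalings and filters, a replicate block, leaving out each sample, and another gene length. The tests were first checked on simulated data.

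The members and lists were chosen with earlier results of these data known. Named genes were all 10 members, genes of the other lists that passed (at most 5 per list), the most abundant gene of each list, noncoding partners and markers at 0. Some genes that met this rule are not reported here, but stay in the counts and medians of their lists. FOXQ1, AXL, CTNNB1, MUC1, ITGA5, ITGB1, FAP and the genes named only for a change of call between settings were added after their values were seen. So were GRHL3, OCLN, SPARC, MUC16, FOLR1, SOX17, KRT7 and KRT8. With 3 against 3 samples, an exact permutation test of a single value could not go below a p of 0.1 and was not used. Sequences are from RefSeq tables (GRCh38.p14) and the GRCh38 genome.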

Additional observations from a re-analysis of the deposited data

How the results depend on the processing

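Over 13 alternatives for each of the 10 genes, 121 of 130 log2 fold changes kept their direction and crossed no threshold, among them ZEB1 and ZEB2 in DESeq2, which gave them no adjusted p, so that only their direction could be compared. That of FN1 turned, to -0.00090 with upper-quartile scaling and to between -0.0077 and 0.030 with single samples left out (adjusted p 0.818 to 0.992 over all alternatives, the cause was not tested). The number of the 10 genes that passed was 1, and it was 2 (CDH1 and VIM) with a replicate block, 0 with a fold threshold of 1.2 and 0 to 1 with single samples left out. For the 84 other epithelial and mesenchymal genes, the number was 10, and it was 15 with the replicate block, 4 with the fold threshold and 4 to 11 with single samples left out. Over all genes tested it was 730, and it was 1322 with the replicate block, 262 with the fold threshold, and 398 to 870 with single samples left out. With fewer samples fitted, it fell below 730 for every sample but Olaparib replicate 1, without which it was 870. Same-numbered samples did not deviate together (correlations of -0.052, 0.082 and -0.047 over 16392 genes), so the numbers were not taken as a pairing. With the replicate block, the adjusted p of CDH1 was 0.0297 and that of VIM 0.00156 in edgeR's test. With the longest transcript as gene length, DMSO levels in TPM were 1531 for FN1, 1299.5 for EPCAM, 227 for VIM, 89.6 for CDH2, 19.3 for CDH1, 13.1 for TWIST1, 4.78 for SNAI1, 3.23 for SNAI2 and 0.30 for ZEB2, because the length itself differs. Depth limits ZEB1 and ZEB2 most, with fewer than 100 counts in each sample.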

Other observations

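The cadherin family beyond E- and N-cadherin was looked at after the levels above were known, so its values are a description. Of 23 cadherin genes, 10 reached 1 TPM in DMSO samples and 7 reached 10 TPM. The most abundant was CDH6 (K-cadherin), with 72.4 ± 1.13 TPM (SD, n = 3) in DMSO and 74.0 ± 2.67 in Olaparib samples, above CDH2. CDH3 (P-cadherin) had 32.4 ± 0.82 TPM in DMSO, and CDH5 (VE-cadherin, the cadherin of endothelial cells) had 26.1 ± 0.79. CDH1 was the sixth of the family at 20.8 ± 0.34 TPM. CDH11, a cadherin of mesenchymal cells, had 1.00 ± 0.047 TPM in DMSO and 1.24 ± 0.079 in Olaparib samples. Its groups did not overlap, as in 10% of all genes in that direction, but it did not pass (adjusted p = 0.0928, edgeR's quasi-likelihood test).

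Among markers of other cell types, the summed level of the 4 endothelial markers was 26.9 to 28.5 TPM in DMSO and 26.2 to 27.2 TPM in Olaparib samples. Nearly all of it was CDH5, at 26.1 TPM in DMSO and 24.6 TPM in Olaparib samples, a difference of -0.075 on the log2 scale that did not pass (adjusted p = 0.442, the same edgeR test). KDR had 78.8 and 97.3 normalized counts and did not pass either (adjusted p = 0.237, the same edgeR test). PECAM1 was listed at 0 in all samples. VWF, the endothelial clotting factor gene at 0.39 TPM, had 41.8 normalized counts in DMSO and 67.4 in Olaparib samples (log2 fold change 0.68, adjusted p = 0.0106, edgeR's quasi-likelihood test). Its counts were low, 38 to 69 per sample, and DESeq2 gave it no adjusted p. The summed level of the 4 leukocyte markers was 2.24 to 2.94 TPM in DMSO and 3.11 to 3.90 TPM in Olaparib samples. Most of it was CD14, at 2.22 and 2.94 TPM, which did not pass (adjusted p = 0.260, the same edgeR test). That of the 4 mesothelial markers was 115 to 118 TPM in DMSO and 107 to 120 TPM in Olaparib samples. Most of this sum was MSLN, at 101 and 98.5 TPM, which did not pass either (adjusted p = 0.827, the same edgeR test). PAX8 rose by 0.10 on the log2 scale (adjusted p = 0.0399 in that test), a call lost in 6 of 13 alternatives, upper-quartile scaling and leaving out any sample but Olaparib replicate 1. The part of these genes in the results above was not tested.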
